A study of Mus musculus with 219 samples.

Results

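The 10 genes described here mark astrocytes: Gfap, S100b, Aqp4, Gja1, Gjb6, Slc1a2, Slc1a3, Glul, Aldoc and Aldh1l1. They were chosen by name as established astrocyte genes, are 10 of the 55487 gene ids counted in each of the deposited tables, and all 10 were expressed well enough to be tested in both. The libraries are RNA-seq of left prefrontal cortex from mice. An atlas holds 92 libraries over 8 times of day, and 126 further libraries are labelled zeitgeber time 6 (ZT6, counted in hours from lights on).

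In the second table, calorimetry mice (63 libraries, darkness throughout at collection) stood against running wheel mice (63 libraries, light and dark). For the calorimetry mice, which had no light phase at collection, ZT6 is the time given in the labels. Both sets held both sexes, 4 genotypes, and mice entrained to equal light and dark spells of 11 h (11:11) or 12 h (12:12). HET/WT mice are Snord116+/-Ctg-/-, WT/TG mice are Snord116+/+Ctg+/-, HET/TG mice are Snord116+/-Ctg+/- and WT/WT mice are Snord116+/+Ctg-/-. Each combination had 4 libraries, except 3 for WT/TG calorimetry males on 11:11 and 3 for WT/TG running wheel males on 12:12, where 1 more labelled sample was not analysed here. These mice entered incubators at about 8 weeks of age and 22 °C, had 7 days to settle, and spent 22 days on their light cycle, the last 7 of them with a wheel in the running wheel set, whereas the calorimetry set entered its chambers after the 22 days. The atlas mice were WT/WT, about 12 weeks old, in home cages on 12:12, with 6 libraries for each sex and time and 5 at ZT18 and ZT21. The set therefore stands for chamber or wheel and for darkness or light together, and these cannot be told apart.

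Astrocytes fill the space between neurons, take up glutamate and potassium released at synapses, and wrap vessels with endfeet. Glutamate is cleared by the transporters GLT-1 (Slc1a2) and GLAST (Slc1a3) and turned into glutamine by glutamine synthetase (Glul). Aquaporin-4 (Aqp4) carries water at the endfeet, connexin 43 (Gja1) and connexin 30 (Gjb6) couple astrocytes into networks, and GFAP (Gfap) is the intermediate filament that rises when astrocytes become reactive.

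The start regions of Gfap, Gja1, Gjb6 and Glul are shown because the rhythm, set and light cycle results turn on these genes. Each is 250 bases before to 50 bases after the RefSeq start, read from RefSeq on GRCm38.p6, on the strand of the gene, with capitals marking AGGTCA or its reverse complement TGACCT, the core recognised by REV-ERB and ROR nuclear receptors of the circadian clock. The regions are chr11:102897151-102897450 on the minus strand for Gfap, chr10:56377050-56377349 on the plus strand for Gja1, chr14:57133562-57133861 on the minus strand for Gjb6 and chr1:153899679-153899978 on the plus strand for Glul.
Gfap: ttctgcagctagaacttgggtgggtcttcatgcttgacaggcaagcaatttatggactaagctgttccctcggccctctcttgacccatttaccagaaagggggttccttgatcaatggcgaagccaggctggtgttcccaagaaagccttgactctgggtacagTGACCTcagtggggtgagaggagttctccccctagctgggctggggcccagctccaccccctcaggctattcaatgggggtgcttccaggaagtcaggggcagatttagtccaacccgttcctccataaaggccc
Gja1: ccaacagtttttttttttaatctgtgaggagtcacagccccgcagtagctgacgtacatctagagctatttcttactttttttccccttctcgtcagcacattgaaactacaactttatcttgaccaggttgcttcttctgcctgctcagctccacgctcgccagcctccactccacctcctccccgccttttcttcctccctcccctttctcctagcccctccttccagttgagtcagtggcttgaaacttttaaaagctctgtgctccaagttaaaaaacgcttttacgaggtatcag
Gjb6: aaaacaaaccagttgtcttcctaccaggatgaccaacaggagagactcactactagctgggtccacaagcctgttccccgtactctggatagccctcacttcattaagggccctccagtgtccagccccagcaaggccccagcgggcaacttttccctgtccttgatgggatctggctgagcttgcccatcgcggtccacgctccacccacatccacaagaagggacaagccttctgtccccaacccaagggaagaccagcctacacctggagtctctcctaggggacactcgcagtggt
Glul: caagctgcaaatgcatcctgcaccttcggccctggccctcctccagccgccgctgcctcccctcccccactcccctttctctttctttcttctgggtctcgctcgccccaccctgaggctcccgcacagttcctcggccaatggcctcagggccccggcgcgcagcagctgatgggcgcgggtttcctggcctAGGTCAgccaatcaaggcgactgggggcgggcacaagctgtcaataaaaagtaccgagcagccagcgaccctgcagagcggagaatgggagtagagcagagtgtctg

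The table of RefSeq start regions used here matched 9 of the 10 genes with 10 regions, 2 of them for Aldoc. The core AGGTCA, searched on both strands, was found in 4 of the 10 regions: in Gfap from position -85 and in Aldh1l1 from position -178 on the reverse strand, and in Glul from position -57 and in Slc1a2 from position 45 on the forward strand, counted from the RefSeq start. Of all 32851 mouse start regions of this length in that table, 16.3% hold it. The E-box CACGTG (7.15% of all regions) and the D-box TTATGTAA (0.938%) were found in 0 of the 10. With no E-box or D-box in these windows, no match overlaps another motif, and a match of letters is a description only.

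Library depth was 12995491 to 18420258 counts in the atlas and 12737699 to 29856536 at ZT6, and the lowest count of any of the 10 genes in a library was 265, for Gjb6. Snhg14, the transcript unit that holds Snord116, was measured in CPM, a gene's counts for a library total of 1000000. It ran from 20.8 to 54.3 in 31 libraries of the HET/WT genotype, from 139 to 218 for WT/TG, from 20.2 to 69.3 for HET/TG and from 116 to 281 for WT/WT. The library labelled HET/WT number 3 of running wheel females on 11:11 was at 167, which goes against its label. One library, running wheel female 11:11 WT/TG number 1, had a scaling factor of 0.390 where the next lowest was 0.743. Leaving out either one changed no count of called astrocyte genes by more than 1.5 times, apart from the pooled light cycle count given further on. The slope of log2 CPM on log2 exon length averaged -0.0712 in calorimetry males, against 0.00831 in running wheel males, -0.00819 in calorimetry females and 0.0691 in running wheel females, so that calorimetry males and running wheel females lay at its ends. The names of the libraries run in separate series by set and sex, in the atlas by sex. Any handling of those series therefore cannot be told apart from the set within each sex. Nor can it be told apart from sex within each set or within the atlas.

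Levels, in CPM scaled by library size, spanned a wide range. Per kilobase of exon, over the 92 atlas libraries, Glul averaged 415 CPM, Slc1a2 341 and Aldoc, the brain form of the glycolytic enzyme aldolase, 146. A middle group held S100b, a calcium-binding protein, at 45.3 CPM per kilobase, Slc1a3 at 40.7 and Gfap at 24.3. Gja1 at 14.8, Aqp4 at 14.7, Gjb6 at 13.5 and Aldh1l1, a folate-metabolising dehydrogenase used as a pan-astrocyte marker, at 11.0 CPM per kilobase came last. All 10 were above 0 in every library. The study measures bulk tissue, in which fewer astrocytes and less RNA per astrocyte cannot be told apart. Exon bases shared with another annotated gene were found in 3 of the 10: 189 bases in Slc1a2, 604 in Aldh1l1 and 116 in Glul. Counts of the genes they share with came to at most 0.213% of the astrocyte gene's own.

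Within groups of the same sex and time, Gfap was the most variable of the 10, with an SD of 0.317 on the log2 scale in the atlas and 0.260 at ZT6. Glul was the steadiest in the atlas, at 0.0844. Across the 92 atlas libraries, after removal of the group means, Aqp4 went with Slc1a3 (Pearson r = 0.766), with Gja1 (0.761) and with Gfap (0.642). Glul went with Aldoc (0.702) and Gjb6 with Aldoc (0.652). The most opposed pair was Aqp4 with Aldh1l1, at -0.307. Over the 45 pairs the median r was 0.262 in the atlas, with 34 above 0, and 0.551 over the 126 libraries at ZT6, with 45 above 0. The same libraries and their dissection enter every pair, so these values describe covariation and carry no test.

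Time of day was asked of the atlas with a cosine and sine of 24 h, sex as a covariate, in edgeR's quasi-likelihood test, p-values adjusted by Benjamini-Hochberg across 17193 genes. It called 7 of the 10 astrocyte genes at an adjusted p of 0.05, where 41.4% of all genes were called. Their daily changes were small and fell into a group with fitted peaks shortly after lights on (Gfap, Aqp4, Gja1 and Slc1a3) and a group with peaks in the dark phase (Gjb6, Glul and Aldh1l1). The median peak-to-trough ratio over the 10 genes was 1.07, against 1.10 over all genes tested.

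Among the structural and endfoot genes, Gfap ranged widely at each time. At ZT3 its 12 libraries ran from 72.1 through a median of 118 to 212 CPM, and at ZT18 its 10 libraries ran from 65.4 through 87.6 to 116 CPM. The mean at ZT3 was the highest of the 8, at 127 ± 47.6 CPM (SD, n = 12), and that at ZT18 the lowest, at 88.7 ± 16.5 CPM (SD, n = 10), with libraries overlapping between the times. The fitted peak-to-trough ratio of Gfap was 1.34 (95% interval 1.18 to 1.53), with a peak at ZT 2.58 ± 1.71 h (95% interval) and an adjusted p of 0.000481 in edgeR. Aqp4, the water channel, ran from 82.8 through 102 to 133 CPM at ZT3 and from 69.5 through 79.7 to 95.7 CPM at ZT12. Its ratio was 1.185 (1.11 to 1.26), with a peak at ZT 2.33 ± 1.49 h and an adjusted p of 5.87e-05 in edgeR. Aqp4 libraries at ZT3 were mostly above those at ZT12, with overlap at the lower end.

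The 2 astrocyte connexins differed in their fitted timing. Gja1 ran from 130 through 160 to 225.5 CPM at ZT3 and from 121 through 144 to 152 CPM at ZT12, a ratio of 1.12 (1.07 to 1.17) with a peak at ZT 1.16 ± 1.55 h and an adjusted p of 0.000102 in edgeR. Gjb6 ran from 27.95 through 32.1 to 37.7 CPM at ZT9 and from 37.5 through 39.7 to 44.3 CPM at ZT15. The ZT15 libraries of Gjb6 lay almost wholly above those of ZT9. Its ratio was 1.19 (1.11 to 1.28), with a peak at ZT 17.9 ± 1.47 h and an adjusted p of 0.000107 in edgeR. The 95% intervals of the 2 peak times do not meet.

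Of the glutamate genes, Glul averaged 1449.6 ± 54.96 CPM at ZT15 and 1349.5 ± 61.3 CPM at ZT9 (SD, n = 12 each). Its ratio was 1.05 (1.02 to 1.09) with a peak at ZT 16.99 ± 2.52 h and an adjusted p of 0.0361 in edgeR. This call is fragile: the adjusted p was 0.0557 with the replicate number as a block, and the gene also missed the threshold without replicate 2, 5 or 6. Slc1a3 averaged 363 ± 37.045 CPM at ZT3 and 334 ± 14.8 CPM at ZT12, with a ratio of 1.06 (1.02 to 1.10), a peak at ZT 0.966 ± 2.35 h and an adjusted p of 0.0162 in edgeR, which was lost without replicate 1 or 6. Slc1a2, the most abundant of the 10 in counts, stayed between 4406.5 CPM at ZT3 and 4550.5 CPM at ZT21 in its time means, with a ratio of 1.02 (0.980 to 1.055) and an adjusted p of 0.744.

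Of the metabolic and calcium-binding genes, Aldh1l1 averaged 52.8 ± 2.68 CPM at ZT15 and 46.6 ± 2.77 CPM at ZT3, with a ratio of 1.085 (1.045 to 1.13), a peak at ZT 14.2 ± 1.83 h and an adjusted p of 0.00124 in edgeR. Aldoc, with time means of 463 to 487 CPM, had a ratio of 1.02 (0.981 to 1.06) and an adjusted p of 0.727. S100b, with time means of 65.0 to 69.5 CPM, had a ratio of 1.03 (0.989 to 1.08) and an adjusted p of 0.457. The intervals of Slc1a2, Aldoc and S100b leave room for ratios of up to 1.08.

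**Figure D1:**
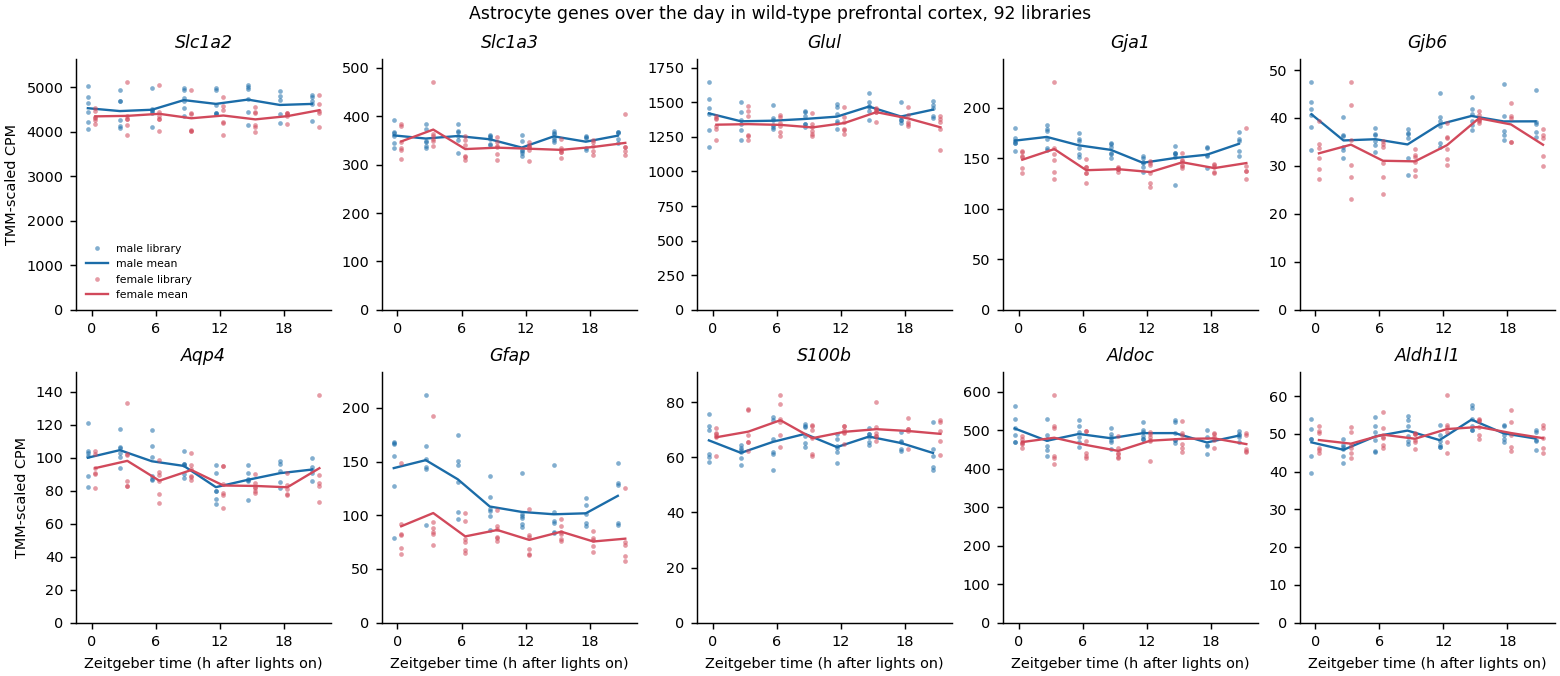
Levels of the 10 astrocyte genes over the day in the atlas, 1 panel per gene, with zeitgeber time in hours on the x axis and scaled CPM on the y axis. Points are libraries and lines join the means of males (blue) and females (red). Gfap and Gja1 lie higher in males at most times, and Gjb6 is lowest around ZT9.

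**Figure D2:**
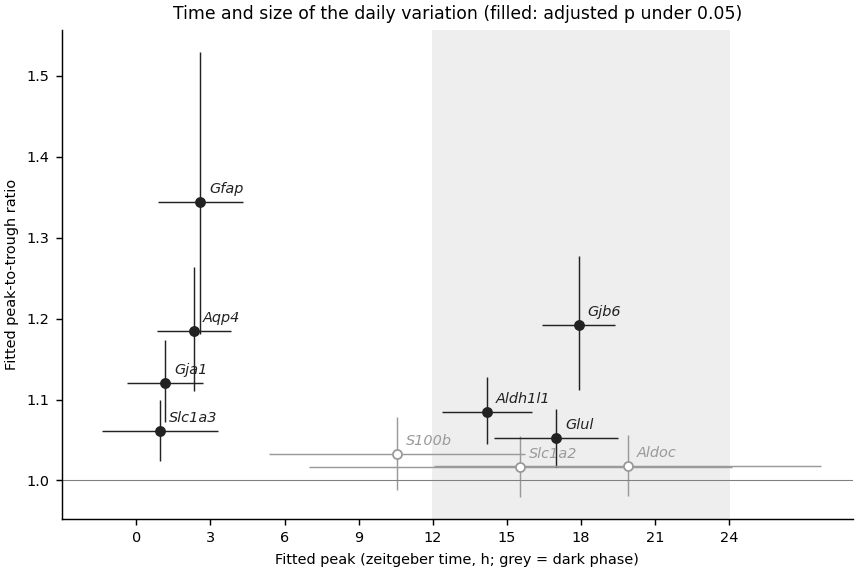
Fitted peak time in zeitgeber hours (x axis) against the peak-to-trough ratio (y axis) for the 10 genes over 92 atlas libraries, with 95% intervals. Filled points mark the 7 called genes, the grey band the dark phase. Gfap, Aqp4, Gja1 and Slc1a3 sit just after lights on, and Gjb6, Glul and Aldh1l1 in the dark phase.

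With sexes fitted apart, males had 5 of the 10 genes called (25.9% of all genes) and females 1, Gjb6 (19.2% of all genes), with an adjusted p of 0.0187. These counts do not compare the sexes. The test of the difference itself called 0 of the 10 in edgeR, 0 in DESeq2 and 0 at an unadjusted p under 0.05, with a lowest adjusted p of 0.799, where 0.0756% of all genes were called. Gfap, for which this p was lowest, had a ratio of 1.525 in males and 1.18 in females. The atlas libraries carry numbers in 2 runs. The 48 libraries numbered up to 24 called 7 of the 10 genes (33% of all genes), and the 44 libraries numbered over 24 called 1 (11.7%), which was again Gjb6, at an adjusted p of 0.0267. Gjb6 peaked at ZT 17.5 in the lower-numbered run and at ZT 18.5 in the higher-numbered run, and Gfap at ZT 2.21 and ZT 3.30. In the same order Aqp4 peaked at ZT 2.68 and ZT 1.375, Aldh1l1 at ZT 14.8 and ZT 13.5 and Glul at ZT 16.1 and ZT 19.1. Gja1 peaked at ZT 2.10 and ZT 23.3 and Slc1a3 at ZT 1.80 and ZT 22.1, so before lights on in the higher-numbered run, where neither was called. Slc1a3 and Glul were not called in either sex alone.

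Marker sums of tissue next to the cortex were also highest at ZT0 and ZT3. The summed level of 8 choroid plexus markers averaged 272 CPM at ZT0 and 254 at ZT3, with 36.5 to 178 at the other times, and that of 8 meningeal markers 98.4 and 89.6 CPM at ZT0 and ZT3, with 76.1 to 84.2 at the others. Of these markers 2 of 8 choroid plexus and 4 of 8 meningeal ones were called for the daily rhythm, where 41.4% of all genes were called, and none was at 0. In other lists 10 of 12 microglia, 10 of 14 endothelial and mural, 9 of 12 oligodendrocyte and 7 of 12 excitatory neuron markers were called. The counts were 5 of 8 for olfactory bulb, 3 of 11 for inhibitory neuron and 3 of 8 for oligodendrocyte precursor markers. They were 1 of 7 tested for ependymal, 0 of 7 tested for blood and 0 of 10 for striatal neuron markers. Within groups, the meningeal sum correlated with Gfap at 0.656, with Gja1 at 0.608, with Aqp4 at 0.602, with Slc1a3 at 0.460 and with Gjb6 at 0.229 over the 92 libraries. The choroid plexus sum correlated with Gfap at 0.469, with Gjb6 at 0.234, with Aqp4 at 0.150, with Gja1 at 0.116 and with Slc1a3 at 0.115. The oligodendrocyte precursor sum correlated with Aqp4 at 0.575, Gfap at 0.567, Slc1a3 at 0.513, Gja1 at 0.494 and Gjb6 at 0.157. The excitatory neuron sum correlated with Aqp4 at -0.471, Gfap at -0.457, Gja1 at -0.286, Slc1a3 at -0.186 and Gjb6 at 0.191. The part of any of these markers in the fitted peaks of Gfap, Aqp4, Gja1 and Slc1a3 was not tested.

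Other astrocyte and partner genes, from lists set up with earlier results known, are given by their counts, to be read against the 41.4% of all genes called. The share of all called genes that peaked in each phase is not given, so the splits by phase are description only. Among 50 other astrocyte genes, 28 were called for the daily rhythm, 20 with a fitted peak in the light phase and 8 in the dark phase. Fabp7, the brain fatty acid binding protein, had a ratio of 2.15 with a peak at ZT 4.19, Dbi, an acyl-CoA binding protein, one of 1.22 (ZT 3.68), Ppp1r3c, which targets a phosphatase to glycogen, one of 1.22 (ZT 22.6) and its relative Ppp1r3g one of 1.33 (ZT 13.1). The median ratio of these 50 was 1.07. Among 32 tested reactive astrocyte genes 17 were called, among them Serpina3n, a protease inhibitor, with a ratio of 1.43 at ZT 1.85, and Hspb1, a small heat shock protein, with 1.58 at ZT 19.5. Of 15 partners in the glutamate-glutamine cycle 10 were called, led by Slc38a2, a glutamine transporter, with a ratio of 1.32 at ZT 17.4, near the fitted peak of Glul. Of 26 glycolysis and lactate genes 12 were called, 10 of them with a dark-phase peak, such as the glucose transporter Slc2a1 (1.36, ZT 14.1) and the glycolytic regulator Pfkfb3 (1.47, ZT 18.3). Among 9 tested folate enzymes 4 were called, and Mthfd1l, a mitochondrial one, had a ratio of 1.73 at ZT 14.7, close to the peak of Aldh1l1. Of 10 other connexins and pannexins 4 were called, all peaking in the light phase, led by the neuronal connexin Gjd2 (1.25, ZT 7.54). Of 13 endfoot genes 4 were called, and of 12 tested S100 and intermediate filament genes 5 were called, led by S100a16 (1.26, ZT 4.14).

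Averaged over the day, males of the atlas had more Gfap than females. Gfap ran from 79.1 through a median of 108 to 212 CPM in 46 male libraries and from 57.1 through 79.9 to 192 CPM in 46 female libraries, means of 121 ± 31.4 CPM in males and 84.57 ± 23.15 CPM in females (SD). Most male libraries of Gfap lay above the female median, and the ranges overlapped. The log2 difference of males over females was 0.50 ± 0.07 (SE), with an adjusted p of 2.08e-09 in edgeR. In all, 8 of the 10 genes were called, 7 higher in males (21.0% of all genes) and 1 lower (20.1%), where 41.1% of all genes were called in either direction. Besides Gfap, males were higher in Gja1 (0.14 ± 0.02), Gjb6 (0.14 ± 0.04), Slc1a2 (0.08 ± 0.02), Glul, Aldoc and Slc1a3 (0.05 ± 0.02 each), on the log2 scale with SE. S100b was lower in males, at 65.0 ± 5.22 CPM against 69.3 ± 5.05 CPM in females (SD, n = 46 each), a difference of -0.09 ± 0.02. Aqp4 (0.07, adjusted p = 0.0724) and Aldh1l1 (-0.01, adjusted p = 0.814) did not pass.

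The lower-numbered run called 4 and the higher-numbered run 5 of the 10 for sex, and the difference of Aldoc was -0.02 and that of Glul 0.0012 in the lower-numbered run. S100b was at -0.02 in the higher-numbered run (adjusted p = 0.674 in edgeR). The call of Slc1a3 was lost in each run taken alone and without replicate 1 or 2, that of Glul without replicate 4 and that of Aldoc without replicate 1, 2 or 4. Striatal neuron markers, 10 of 10 of which were lower in males with none at 0, summed to 206 to 741 CPM in males and 216 to 2155 CPM in females. Gfap correlated with that sum at -0.375 within groups. It correlated with the inhibitory neuron sum at -0.481, with the excitatory neuron sum at -0.457 and with the blood sum at 0.0994. Of 7 tested blood markers 7 were higher in males. Of 12 excitatory neuron markers 5 were higher and 3 lower, of 11 inhibitory ones 3 and 4, and of 8 olfactory bulb ones 0 and 4. Of 12 oligodendrocyte markers 3 were higher and 0 lower, of 14 endothelial and mural ones 3 and 0, and of 8 meningeal ones 2 and 0. Of 12 microglia markers 0 were higher and 2 lower, and of 8 oligodendrocyte precursor ones 0 and 1. Choroid plexus and ependymal markers had 0 called. The part of any of these markers in the sex difference was not tested. Male and female libraries carry separate series of names, so sex and any handling of those series cannot be told apart. Of the other connexins and pannexins 5 of 10 were higher in males (21.0% of all genes) and 0 lower (20.1%), including Panx2 (0.30) and Gjb2 (0.31), and of the other astrocyte genes 19 were higher and 5 lower, including Sparcl1, a secreted matrix protein, at 0.15 and Chrdl1, a bone morphogenetic protein antagonist made by astrocytes, at -0.29.

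At ZT6, calorimetry mice differed from running wheel mice in 7 of the 10 genes, 6 higher in calorimetry (29.3% of all genes) and 1 lower (32.9%), where 62.2% of the 18841 genes tested were called. Averaged with equal weight over sex, light cycle and genotype, the log2 differences (SE) were 0.52 ± 0.03 for S100b, 0.28 ± 0.04 for Gjb6, 0.27 ± 0.03 for Aldoc, 0.26 ± 0.05 for Gfap, 0.22 ± 0.02 for Glul and 0.11 ± 0.03 for Gja1. Aqp4 was lower in calorimetry mice, by -0.10 ± 0.03. Slc1a2, Slc1a3 and Aldh1l1 did not pass. The median over the 10 genes was 0.16, against -0.02 over all genes.

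For S100b, Aldoc, Gfap, Glul and Gja1 that difference was larger in males than in females. For Gjb6 and Aqp4 the test between the sexes, given below, did not pass. S100b ran from 83.2 through a median of 118 to 153 CPM in 31 calorimetry males, and from 62.4 through 70.8 to 91.1 CPM in 31 running wheel males. In females S100b ran from 64.5 through 74.6 to 95.03 CPM in 32 calorimetry mice and from 45.7 through 59.6 to 91.3 CPM in 32 running wheel mice. Calorimetry males were above running wheel males in S100b with overlap in a narrow band, and the female groups overlapped more. Gfap ran from 71.0 through 131 to 208 CPM in calorimetry males and from 67.4 through 88.0 to 161 CPM in running wheel males. In females Gfap ran from 58.4 through 87.9 to 133 CPM in calorimetry mice and from 70.9 through 94.9 to 115 CPM in running wheel mice. For Gfap only the median of calorimetry males stood apart, and the ranges of all 4 groups overlapped.

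Aldoc averaged 709 ± 121 CPM in calorimetry males and 491 ± 41.6 CPM in running wheel males, against 509 ± 51.3 CPM in calorimetry females and 502 ± 35.9 CPM in running wheel females (SD). Glul averaged 2054 ± 364 CPM in calorimetry males and 1548 ± 97.2 CPM in running wheel males, with 1566 ± 112 CPM in calorimetry females and 1537 ± 110 CPM in running wheel females. Both enzymes were thus high in calorimetry males and near equal in the other 3 groups. Calorimetry males were also the most variable group, with a highest Glul level of 2705 CPM and a lowest of 1250 CPM. Aldh1l1 averaged 55.3 ± 9.85 CPM in calorimetry males and 49.6 ± 5.18 CPM in running wheel males, but 51.0 ± 4.09 CPM in calorimetry females and 57.0 ± 3.65 CPM in running wheel females.

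Within males 8 of the 10 genes were called (65.0% of all genes): S100b at 0.70 ± 0.04, Gfap at 0.59 ± 0.07, Aldoc at 0.53 ± 0.04, Glul at 0.40 ± 0.03, Gjb6 at 0.29 ± 0.06, Gja1 at 0.18 ± 0.04 and Aldh1l1 at 0.16 ± 0.04 higher in calorimetry, and Aqp4 lower at -0.12 ± 0.04 (log2, SE), a call that was lost without replicate 2 (adjusted p = 0.0628 in edgeR). Within females 3 were called (43.6% of all genes): S100b at 0.35 ± 0.04 and Gjb6 at 0.27 ± 0.06 higher, and Aldh1l1 lower at -0.16 ± 0.04. The test of the difference between the sexes called 6 of the 10, all with the larger log2 difference in males (22.7% of all genes, with 51.8% called in either direction). They were Gfap (0.65 ± 0.09), Aldoc (0.51 ± 0.05), Glul (0.38 ± 0.05), S100b (0.36 ± 0.05), Aldh1l1 (0.32 ± 0.06) and Gja1 (0.14 ± 0.05). Without replicate 1 Gja1 was not called (adjusted p = 0.0871 in edgeR). Gjb6, with 0.02 ± 0.08 (95% interval -0.13 to 0.18), did not pass. By light cycle, the set difference was called for 8 of the 10 in males on 11:11 (52.6% of all genes), 6 in males on 12:12 (55.9%), 4 in females on 11:11 (33%) and 2 in females on 12:12 (30.6%, 1 without replicate 3). The count for males on 12:12 was 4 without replicate 1, 2 or 4.

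**Figure D3:**
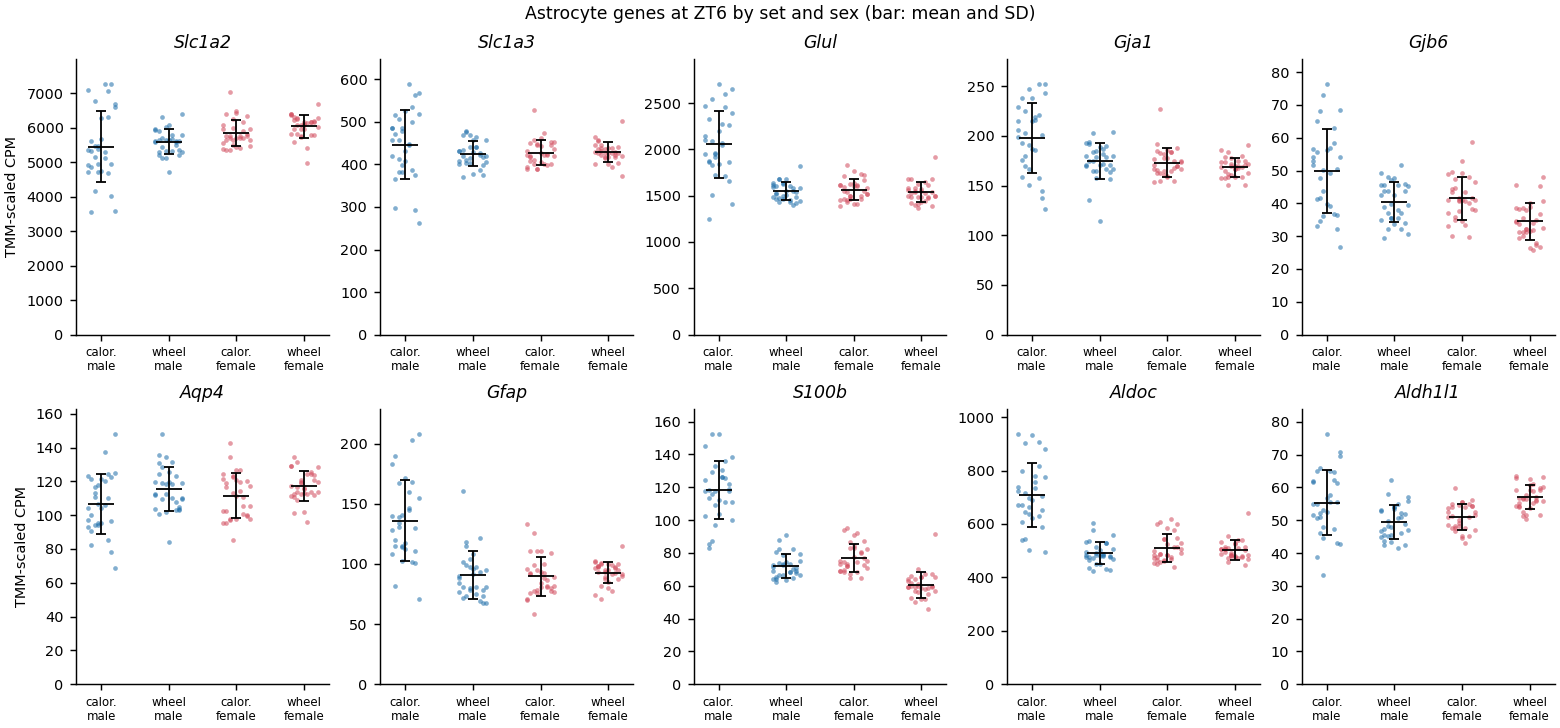
Levels of the 10 genes at ZT6 in calorimetry males, running wheel males, calorimetry females and running wheel females, 1 panel per gene, with scaled CPM on the y axis. Points are libraries, with the mean and SD beside them. Calorimetry males are the highest group for S100b, Gfap, Aldoc, Glul, Gja1 and Gjb6 and also the most spread.

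Seen the other way, males exceeded females at ZT6 in 6 of the 10 genes (27.6% of all genes) and were lower in 1 (30.5%), where 58.1% were called in all. Within calorimetry 8 genes were called (63.1%), 7 of them higher in males, from S100b at 0.61 ± 0.04 and Gfap at 0.60 ± 0.07 to Aldh1l1 at 0.12 ± 0.04, with Slc1a2 lower at -0.11 ± 0.03. Within running wheel 4 were called (33.8%): S100b at 0.25 ± 0.04 and Gjb6 at 0.24 ± 0.06 higher in males, and Slc1a2 at -0.11 ± 0.03 and Aldh1l1 at -0.20 ± 0.04 lower. Gfap, whose atlas libraries were also higher in males, was at -0.05 ± 0.07 in running wheel mice. S100b was higher in males in both of these sets and lower in males of the atlas, where at ZT6 it averaged 65.6 ± 7.52 CPM in males and 73.4 ± 7.02 CPM in females (SD, n = 6 each). No test was made across the tables. Without replicate 1 Aldh1l1 was not called in calorimetry (adjusted p = 0.0725 in edgeR), and without replicate 3 Slc1a2 was not called in running wheel (adjusted p = 0.0750). With the exon length slope as a covariate, running wheel calls were lost for S100b (0.05, adjusted p = 0.556 in edgeR) and Gjb6 (0.18, adjusted p = 0.106). Calorimetry calls were then lost for Gja1 (0.11, adjusted p = 0.1215 in edgeR), Gjb6 (0.20, adjusted p = 0.0615) and Aldh1l1 (-0.06, adjusted p = 0.488).

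Markers of other cell types also differed between calorimetry males and running wheel males, in both directions. The oligodendrocyte marker sum ran from 4299 to 8314 CPM in calorimetry males, with a mean of 6037, against means of 3945 in running wheel males, 4324 in calorimetry females and 4022 in running wheel females. Of these 12 markers 8 were higher in calorimetry males than in running wheel males and 0 lower, where 65.0% of all genes were called in either direction. Of 12 microglia markers 9 were higher and 1 lower, of 14 endothelial and mural markers 7 were higher and 3 lower, and of 10 striatal neuron markers 0 were higher and 10 lower. The blood marker sum averaged 202 CPM in calorimetry males and 87.0 in running wheel males, and 6 of its 7 tested markers were higher. None of these markers was at 0 in either group. Of 12 excitatory neuron markers 2 were higher and 7 lower, and of 11 inhibitory neuron markers 2 and 7. Of 8 oligodendrocyte precursor markers 1 was higher and 5 lower, and of 8 choroid plexus markers 0 and 7. Of 8 meningeal markers 2 were higher and 4 lower, of 8 ependymal ones 3 and 0, and of 8 olfactory bulb ones 2 and 1. With the slope on exon length added as a covariate, the set difference was called for 2 of the 10 genes, and those of Gfap (-0.09) and Aldoc (-0.06) turned negative. The set calls of Glul (0.03, adjusted p = 0.677 in edgeR) and Gja1 (0.003, adjusted p = 0.9805) were also lost. So were those of Gjb6 (0.21, adjusted p = 0.0797) and Aqp4 (-0.15, adjusted p = 0.0610). The sex difference was then called for 3, with Gfap at -0.01 and Aldoc at -0.04. Within females the calls of S100b (0.08, adjusted p = 0.309) and Gjb6 (0.20, adjusted p = 0.1205) were lost with it in edgeR. Within males those of Gfap (0.23, adjusted p = 0.125), Gjb6 (0.22, adjusted p = 0.0912), Gja1 (0.07, adjusted p = 0.415) and Aldh1l1 (-0.06, adjusted p = 0.531) were lost. Over the 126 libraries the slope correlated with S100b at -0.886, Aldoc at -0.71, Glul at -0.62, Gfap at -0.559, Gjb6 at -0.489 and Gja1 at -0.389. With Aqp4 it correlated at 0.233. The part of cell composition and of the length slope in these differences was not tested further.

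The counts of the same lists for the set stand beside 65.0% of all genes called in males and 43.6% in females, in either direction. Among 50 other astrocyte genes, 30 were higher and 8 lower in calorimetry males than in running wheel males. Cst3, the protease inhibitor cystatin C, was at 0.62, Dbi at 0.61, Mt3, a metal-binding metallothionein, at 0.73 and Ppp1r3c at 0.50 on the log2 scale. In females 16 were higher and 15 lower. Of 15 glutamate-glutamine partners 1 was higher in calorimetry males (Glud1, glutamate dehydrogenase, 0.39) and 10 were lower (among them the glutamine transporter Slc38a1, -0.39). Of 26 glycolysis genes 5 were higher (Ldhb, 0.39) and 12 lower (Pfkp, -0.29) in males. Reactive astrocyte genes were divided, 10 higher and 9 lower of 32, and Stat3, a transcription factor of reactive astrocytes, was at -0.32. Among S100 and filament genes S100a1 was at 1.08 and S100a16 at 0.65 in males, with 7 higher and 3 lower of 12. Of 13 endfoot genes 3 were higher (Mlc1, a membrane protein of perivascular astrocytes, 0.44) and 6 lower (Dag1, dystroglycan, -0.41). Of 9 folate enzymes 2 were higher (Mthfd1l, 0.58) and 4 lower, and of 10 other connexins and pannexins 3 were higher (Gjc3, 0.42) and 2 lower. The slope on exon length averaged -0.0712 in calorimetry males and 0.00831 in running wheel males. Its part in these list values was not tested.

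The light cycle was compared as 11:11 against 12:12. These cycles differ in length, so ZT6 is not the same fraction of each. Pooled over sets, sexes and genotypes it called 1 of the 10 genes, Gjb6, which was higher on 11:11 by 0.15 ± 0.04 (log2, SE) with an adjusted p of 0.00474 in edgeR, where 12.6% of all genes were called and 7.49% were higher on 11:11. That call was lost without replicate 1 (adjusted p = 0.0707). The pooled count was 2 without the library of the lowest scaling factor. S100b, at -0.07 ± 0.03, had an adjusted p of 0.0507. The sets differed. In calorimetry mice 4 of the 10 were called, all higher on 11:11 (10.4% of all genes, with 19.6% called in all): Gjb6 at 0.34 ± 0.06, Slc1a3 at 0.11 ± 0.03, Glul at 0.11 ± 0.03 and Gja1 at 0.10 ± 0.04. Without replicate 1 the count was 1, with Slc1a3, Glul and Gja1 lost. The call of Gja1 was also lost without replicate 3 or 4, with the replicate number as a block, in DESeq2, with RLE scaling and without the library of the lowest scaling factor, at adjusted p-values of 0.0502 to 0.121. In running wheel mice edgeR called 0 of the 10, DESeq2 0, and 0 had an unadjusted p under 0.05, where 0.069% of all genes were called. The test of the difference between sets called 1 of the 10, Gjb6, at 0.38 ± 0.08 with an adjusted p of 0.00105 in edgeR (5.32% of all genes).

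Gjb6 ran from 47.6 through a median of 56.3 to 76.3 CPM in 15 calorimetry males on 11:11, and from 26.6 through 39.5 to 63.0 CPM in 16 on 12:12. In calorimetry females it ran from 33.4 through 43.9 to 58.6 CPM on 11:11 and from 29.6 through 39.6 to 49.4 CPM on 12:12. The male groups overlapped in part and the female groups over most of their range. In the running wheel set the means on 11:11 and 12:12 lay together, at 40.3 ± 5.58 and 40.4 ± 6.71 CPM in males and at 33.7 ± 5.11 and 35.3 ± 6.14 CPM in females (SD).

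**Figure D4:**
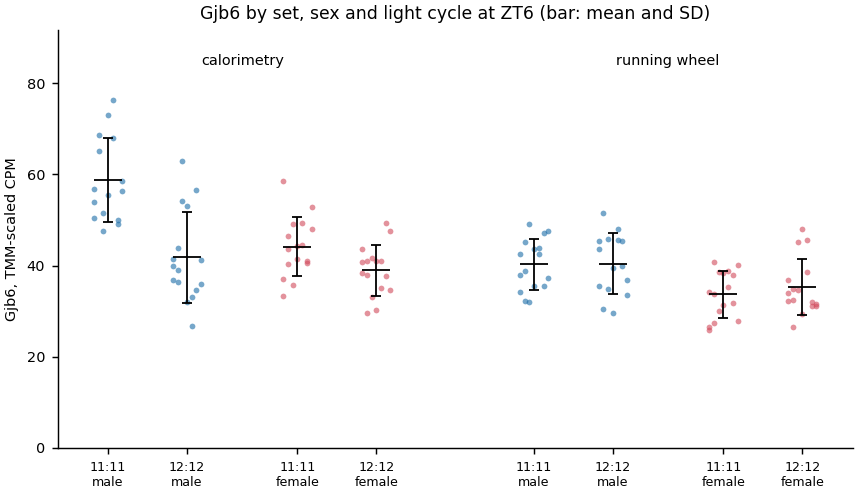
Levels of Gjb6 (connexin 30) at ZT6 by set, light cycle and sex, in scaled CPM on the y axis. Points are libraries, with the mean and SD. Calorimetry males on 11:11 average 58.7 CPM and those on 12:12 41.8 CPM, while the running wheel groups of each sex lie together.

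The sexes were then fitted apart within calorimetry. In males all 10 log2 differences were above 0, with a median of 0.20 against -0.00 for all genes, and 6 were called (13.5% of all genes). They were Gjb6 (0.50 ± 0.08), Slc1a3 (0.31 ± 0.05), Gja1 (0.30 ± 0.05), Slc1a2 (0.22 ± 0.05), Glul (0.22 ± 0.05) and Aqp4 (0.19 ± 0.05). The male call of Aqp4 was lost without replicate 1, 2 or 4, at adjusted p-values of 0.0982, 0.0610 and 0.0540 in edgeR. In females the median was -0.10, and 3 were called (12.3% of all genes), each lower on 11:11: Gfap (-0.29 ± 0.09), Aqp4 (-0.24 ± 0.05) and S100b (-0.19 ± 0.05). Without replicate 2 or without replicate 4 the female count was 1. The length slope averaged 0.00594 in calorimetry females on 11:11 and -0.0223 in those on 12:12. With it as a covariate the female calls of Gfap (-0.16, adjusted p = 0.344 in edgeR) and S100b (-0.09, adjusted p = 0.3075) were lost. The difference between the sexes was called for 6 of the 10 (3.91% of all genes): Gfap (0.45 ± 0.13), Aqp4 (0.43 ± 0.08), Gja1 (0.41 ± 0.07), Slc1a3 (0.40 ± 0.07), Slc1a2 (0.27 ± 0.07) and Glul (0.22 ± 0.07), with 3 called without replicate 4, 4 without replicate 1 or 2 and 8 without replicate 3. Gjb6, at 0.31 ± 0.11, had an adjusted p of 0.0862. The calls of Gfap and Glul were lost without replicate 1, 2 or 4. With the length slope as a covariate they were also lost (adjusted p = 0.0562 and 0.0714 in edgeR). That of Glul was further lost in DESeq2 (adjusted p = 0.0544) and with RLE scaling (adjusted p = 0.0606 in edgeR). That of Slc1a2 was lost without replicate 4 (adjusted p = 0.0761 in edgeR).

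Aqp4 averaged 114 ± 11.7 CPM in calorimetry males on 11:11 and 99.6 ± 19.5 CPM in those on 12:12, but 102 ± 8.64 CPM in calorimetry females on 11:11 and 121 ± 10.3 CPM in those on 12:12 (SD). Gfap averaged 144 ± 30.4 CPM in males on 11:11 and 129 ± 35.9 CPM on 12:12, against 80.9 ± 11.7 CPM in females on 11:11 and 98.9 ± 15.5 CPM on 12:12. Both genes were therefore higher on 11:11 in male means and lower on 11:11 in female means, and every pair of groups overlapped. Slc1a3 averaged 497 ± 52.2 CPM in males on 11:11 and 400 ± 75.3 CPM on 12:12, and 414 ± 20.0 CPM in females on 11:11 and 442 ± 32.2 CPM on 12:12. Slc1a2 averaged 5895 ± 805 CPM in males on 11:11 and 5049.6 ± 1087 CPM on 12:12, and 5746 ± 311 CPM in females on 11:11 and 5958 ± 438 CPM on 12:12.

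In running wheel mice the values mostly took the same signs, without passing the test. In males 9 of the 10 were above 0, edgeR called 0 (0.0% of all genes) with 3 at an unadjusted p under 0.05, and Gfap was furthest from 0, at 0.25 ± 0.09. In females all 10 were below 0, edgeR called 0 (0.276% of all genes) with 1 at an unadjusted p under 0.05, and S100b was furthest from 0, at -0.16 ± 0.05. DESeq2 called 0 in both. The difference between the sexes was above 0 for all 10, from 0.05 to 0.31, with 0 called in edgeR (0.0% of all genes) and 0 in DESeq2, and 6 at an unadjusted p under 0.05. The 10 genes were measured in the same libraries and covary, so agreement of signs among them is not 10 separate observations.

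**Figure D5:**
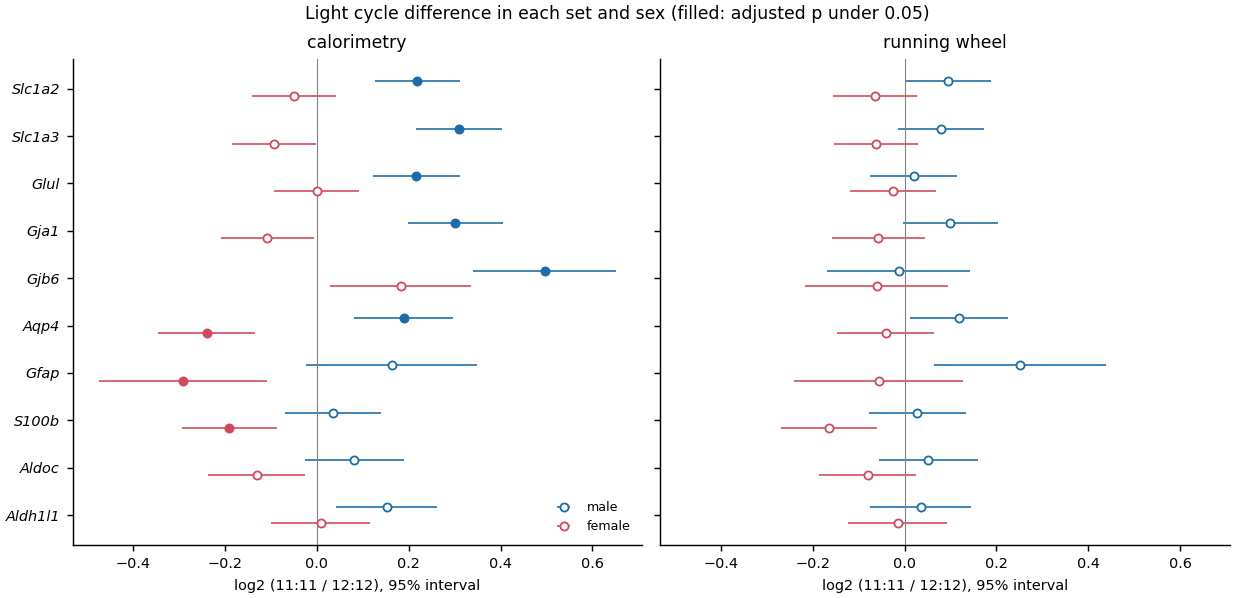
Log2 difference of 11:11 over 12:12 for the 10 genes with 95% intervals, in males and females, calorimetry on the left and running wheel on the right. Filled points are called. In calorimetry the male points lie above 0 and most female points below it, and in running wheel mice no interval belongs to a called gene.

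Markers of other cell types again differed by light cycle in calorimetry, where 13.5% of all genes were called in males and 12.3% in females. In calorimetry males the oligodendrocyte sum averaged 6471 CPM on 11:11 and 5629 on 12:12, microglia 433 and 382, and endothelial and mural markers 554 and 508, with 5 of 12, 6 of 12 and 4 of 14 markers higher and 1, 1 and 0 lower. In calorimetry females microglia averaged 351 CPM on 11:11 and 385 on 12:12, and endothelial and mural markers 461 and 490, with 5 of 12 and 3 of 14 lower and 0 higher. The blood sum averaged 162 CPM on 11:11 and 240 on 12:12 in calorimetry males, and 73.7 and 105 in calorimetry females, with 3 of 7 tested markers lower in each sex. No marker of these lists was at 0. Of 8 oligodendrocyte precursor markers 6 were higher and 0 lower in males, and 2 higher and 0 lower in females. Of 12 oligodendrocyte markers 0 were higher and 3 lower in females. Of 12 excitatory neuron markers 0 were higher and 1 lower in males, and 2 higher and 0 lower in females. Of 11 inhibitory neuron markers 0 were higher and 1 lower in males, and 1 higher and 0 lower in females. The part of all these markers in the light cycle differences was not tested.

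In calorimetry mice 13.5% of all genes were called in males and 12.3% in females, in either direction. Among 50 other astrocyte genes, 29 were higher and 1 lower on 11:11 in males, and 1 was higher and 6 lower in females. In males Chrdl1 was at 0.40, the secreted protease Htra1 at 0.36, the adhesion protein Hepacam at 0.33 and the lipase Pla2g7 at 0.27. Of 13 endfoot genes 5 were higher in males, among them the sodium pump subunit Atp1b2 (0.24) and the potassium channel Kcnj10 (0.26), and 1 was lower (Agrn, -0.21). Of 15 glutamate-glutamine partners 1 was higher (Slc38a2, 0.29) and 1 lower (Slc17a7, -0.14). Of 26 glycolysis genes 2 were higher (the glucose transporter Slc2a1, 0.39, and hexokinase Hk2, 0.30) and 2 lower. Among 10 other connexins and pannexins 1 was higher (Gjc3, 0.23) and 0 lower, among 9 folate enzymes 2 were higher (Mthfd2, 0.45) and 0 lower, among 32 reactive genes 3 were higher and 3 lower, and among 12 S100 and filament genes 1 was higher (Vim, 0.22) and 2 lower (S100a16, -0.35).

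With low counts filtered out, genotype averaged over the other factors moved none of the 10 past the test. Against WT/WT, edgeR called 0 of the 10 in HET/WT (0.0425% of all genes), 0 in WT/TG (0.0159%) and 0 in HET/TG (0.0478%), DESeq2 called 0 in each, and 0, 0 and 0 had an unadjusted p under 0.05. The log2 differences ran from -0.05 to 0.06 in HET/WT, from -0.04 to 0.10 in WT/TG and from -0.08 to -0.01 in HET/TG. The widest 95% interval in HET/WT reached -0.15 and 0.19. Glul, for example, averaged 1666 ± 330 CPM in HET/WT mice, 1719 ± 272 in WT/TG mice and 1635 ± 297 in HET/TG mice, against 1680 ± 290 in WT/WT mice (SD). Gfap averaged 105 ± 28.5 CPM in HET/WT mice, 102 ± 28.7 in WT/TG mice and 102 ± 35.002 in HET/TG mice, against 101 ± 22.7 in WT/WT mice.

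For the deletion by light cycle all 10 values were above 0, so HET/WT over WT/WT was higher on 11:11 than on 12:12, but edgeR called 0 (0.0% of all genes) and DESeq2 0, with 4 at an unadjusted p under 0.05. Slc1a2 had the largest, at 0.23 ± 0.07, with an unadjusted p of 0.000675 and an adjusted p of 0.436. Slc1a2 ran from 5331 through 5952 to 7271 CPM in HET/WT on 11:11 and from 4975 through 5788 to 6768 CPM in WT/WT on 11:11. On 12:12 it ran from 3546 through 5651 to 6170 CPM in HET/WT and from 4868 through 6036 to 7099 CPM in WT/WT. The genotypes overlapped on both cycles, and the lowest HET/WT library on 12:12 was below all WT/WT libraries. Taken apart, HET/WT against WT/WT called 0 on 11:11 (0.0212% of all genes, 1 at an unadjusted p under 0.05) and 0 on 12:12 (0.0265%, 2 at an unadjusted p under 0.05), and DESeq2 called 0 in each. With no filter on low counts edgeR called 1 of the 10 for the deletion by light cycle and 1 for HET/WT against WT/WT on 12:12. The deletion by sex and by set also called 0 of the 10 in edgeR (0.0% of all genes each) and 0 in DESeq2, with 0 and 0 at an unadjusted p under 0.05.

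Genes whose pattern was most like the mean of the 10, each standardised in log2 CPM, were sought among genes above a mean log2 CPM of 2. Over the 92 atlas libraries, among 11638 genes, the 5 highest included Ndrg2 (r = 0.756), Mlc1 (0.752), Nwd1 (0.743) and Epas1 (0.734). Over the 126 libraries at ZT6, among 11617 genes, they were Fads1 (0.905), Scd1 (0.858), Tmem229a (0.856), Zcchc24 (0.853) and Epas1 (0.852), so Epas1, a hypoxia-inducible transcription factor, was the one named in both. For comparison, each of the 10 against the same mean, which it is part of, ranged from 0.0688 for S100b to 0.778 for Aldoc in the atlas and from 0.496 for Aqp4 to 0.885 for Glul at ZT6.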

How the data were processed

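The deposited files are tables of raw counts per gene, which the authors made from directional, rRNA-depleted libraries of left prefrontal cortex. Trim Galore, STAR, SAMtools, limma and the mm10 build are named in the submitters' processing notes, without versions. The counting program, its annotation and its strand setting were not given in the sources used here. Counts were tested as deposited with edgeR 4.0.16 in R 4.3.3, with filterByExpr, TMM scaling, robust quasi-likelihood fits and Benjamini-Hochberg adjustment over all genes tested (17193 in the atlas, 18841 at ZT6, threshold 0.05).

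The atlas model held a cosine and sine of 24 h and sex. The ZT6 model held 1 mean for each of the 32 groups, and every comparison is an equally weighted contrast of those means. An SE was taken from the log2 difference and its F. CPM use TMM-scaled library sizes, and levels per kilobase use exon lengths of GENCODE vM21. That annotation lacks 260 of the 55487 gene ids counted. The atlas and ZT6 tables were scaled separately, so levels are not set against each other. Samples were grouped by their labels, which number biological replicates, and p-values measure the spread between them.

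The 10 genes and all gene lists were chosen with earlier results of these data known. All 10 are named in every comparison, and up to 4 genes of each list are named by smallest p. Genes named as most alike are from the 5 with the highest correlation with the mean of the 10. Some genes that these rules would name are not reported here. Tests were tried on simulated data first. Alternatives included DESeq2 1.42.0, other scaling, no filter, a replicate block, leaving out each replicate, and the length slope as a covariate. Those by library number run, by set and sex, and without the library of lowest scaling factor were chosen after seeing the data. Python 3.11.15, pandas 2.3.3, numpy 2.4.6, scipy 1.17.1 and matplotlib 3.10.9 were used for summaries and figures.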

Additional observations from a re-analysis of the deposited data

Results flagged for a closer look

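A library far from the others of its group was looked for in 36 groups of atlas libraries, and chance alone marks about 5% of such groups. Gfap had one such high library in females at ZT0 (148.57 CPM), ZT3 (192.06 CPM) and ZT21 (125.12 CPM) and in males at ZT12 (139.45 CPM) and ZT15 (147.08 CPM). Aqp4 had one among the 10 libraries at ZT21, a female (138.24 CPM).

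The log2 difference of calorimetry over running wheel was larger in males than in females by the test of that difference for Gfap (0.6463), Aldoc (0.5079), Glul (0.3758), S100b (0.3572), Aldh1l1 (0.3158) and Gja1 (0.1449). The log2 difference of 11:11 over 12:12 was larger in calorimetry than in running wheel mice for Gjb6 (0.3761). Within calorimetry it was larger in males than in females for Gfap (0.4546), Aqp4 (0.429), Gja1 (0.409), Slc1a3 (0.4024), Slc1a2 (0.2695) and Glul (0.2171). Among these, the light cycle calls of Gfap, Slc1a2 and Glul within calorimetry were lost in some of the alternatives given above. So was the call of Gja1 for the set difference between the sexes. What sets these mice apart was not tested.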

How the results depend on the processing

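Of 1141 alternatives to 99 called results of single genes, 1026 kept direction and call, 108 lost the call and 7 reversed. Of 362 alternatives to 32 counts of called genes, 332 stayed within 1.5 times. The rhythm count fell to 1 in females alone and to 1 in libraries numbered over 24, and the atlas sex count to 4 in libraries numbered up to 24, where Aldoc was -0.018, and to 5 in those numbered over 24. With the length slope as a covariate the count was 2 for the set, with Gfap at -0.089 and Aldoc at -0.058, and 3 for sex at ZT6, with Gfap at -0.0051 and Aldoc at -0.039. It was 4 for the set in males, with Aldh1l1 at -0.061, 5 for sex in calorimetry, with Aldh1l1 at -0.056, 5 and 2 for the set in males on 11:11 and 12:12, 2 for light cycle by set, 2 for the light cycle and 1 for the light cycle in calorimetry females. The light cycle count was also 2 with the replicate block, in DESeq2, with no filter, with RLE scaling and without the library of the lowest scaling factor. With no filter the count was 2 for light cycle by set, 5 for the light cycle in calorimetry females, and 1 each for the light cycle in running wheel males and in running wheel females, its difference by sex there, HET/WT by light cycle and HET/WT on 12:12. The cause of these shifts was not tested. Leaving out each replicate number gave 1 to 5 for the light cycle in calorimetry, 1 to 3 for it in calorimetry females, 3 to 8 for its difference by sex in calorimetry and 1 to 2 for the set in females on 12:12.

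Libraries with the same replicate number did not deviate together (median r 0.00204 in the atlas and 0.00878 at ZT6), so the numbers were not taken as pairs. With the replicate number as a block the rhythm count was 6, with Glul at an adjusted p of 0.0557, and the count for the light cycle in calorimetry was 3. RLE scaling moved the median of all genes by at most 0.017 on the log2 scale.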
